A study of Sus scrofa with 6 samples.

Results

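Chaperone and protein folding genes were examined in the left atrium of Lanyu miniature pigs with and without mitral regurgitation, a backflow of blood from the left ventricle into the atrium. The members were all genes on the array whose symbol marks them as heat shock protein 70 or 110 family (HSPA, HSPH), heat shock protein 90 family (HSP90), mitochondrial chaperonin (HSPD, HSPE), J-domain protein (DNAJ), protein disulfide isomerase (PDIA), FK506-binding protein (FKBP) or cytosolic chaperonin (CCT and TCP1), together with the lectin chaperones CALR and CANX. The rule found 62 genes among the 6765 with a single symbol, read by 106 of the 23999 probe sets that are not controls. For a gene with several probe sets, the brightest on average over the 6 arrays stands for it. Of the 62 genes, 57 had a mean intensity at or above the 40th percentile of all probe sets, 61.4 intensity units, and were tested.

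RNA came from 6 male pigs, each 18 months old, with 1 array per animal and n = 2 per group. Normal controls (NC) had no lesion, and no surgery is recorded for them. Animals with mitral regurgitation (MR) had a 2.8 mm hole made in the middle scallop of their posterior mitral leaflet and were killed 12 months later. Treated animals (MRV) had the same lesion and received valsartan, which blocks the type I receptor of angiotensin II, at 3.43 mg/kg/day from the week before surgery onward. Regurgitation and the surgery that made it cannot be told apart in comparisons with NC.

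Chaperones bind proteins that are unfolded or partly folded and keep them from aggregating. HSP70 proteins work with J-domain proteins, which deliver clients and speed the HSP70 ATPase, and they can hand clients to HSP90 or to the ring-shaped chaperonins. The cytosol, the endoplasmic reticulum (ER) and the mitochondrial matrix each hold their own set, and in the ER disulfide isomerases, proline isomerases and lectin chaperones act on membrane and secreted proteins. Working heart muscle relies on them for folding actin, myosin and imported mitochondrial enzymes, and FKBP proteins also sit on the calcium release channel of the sarcoplasmic reticulum.

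The array medians ran from 90.2 to 93.4, and the depth of a measurement is limited by the number of arrays. Atrial muscle markers were present on every array, with MYL4 between 21034 and 21842 and NPPA between 18414 and 20170 intensity units. The ventricular light chain MYL2 read 203 and 325 (NC), 10693 and 2318 (MR) and 152 and 954 (MRV). The actin control probes gave a ratio of 3' over 5' signal, a sign of RNA degradation when high, of 1.61 for NC1 and 1.91 for NC2. It was 1.44 for MR1, 1.70 for MR2, 2.30 for MRV1 and 1.87 for MRV2. NC1 and NC2 correlated less closely with each other (r = 0.958 across tested probe sets) than MR1 with MR2 (r = 0.980) or MRV1 with MRV2 (r = 0.981). These correlations run across probe sets, not across replicates.

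The first question was how folding genes read in atria after 12 months of regurgitation, set against NC. FKBP11, an ER proline isomerase, was lower in both MR animals, at 423 and 516 against 722 and 939 in NC, and FKBP3, a nuclear member of the same family, was higher, at 4472 and 4344 against 3543 and 3492. Over all 57 genes the median log2 difference was -0.018, against 0.0023 over all probe sets. No member passed an adjusted p of 0.05 with limma (smallest adjusted p = 0.999955), a threshold that 0.00694% of all probe sets and 0.0185% of genes passed. At an unadjusted p under 0.05, 1 member was higher (1.75%, against 2.19% of all probe sets and 2.61% of genes read by 1 probe set each) and 1 was lower (1.75%, against 1.83% and 1.89%). The MR arrays did not overlap the NC arrays for 10 members that were higher (17.5%, against 14.3% of all probe sets) and 11 that were lower (19.3%, against 12.5%). Restricted to 1 probe set per gene, the background shares were 15.7% and 12.4%. The number of members at an unadjusted limma p under 0.05 was 2 in all, 4 without NC1 and 5 without MR2.

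The 95% intervals bound how large a shift these arrays could have missed, gene by gene. They lay within a log2 difference of 1 either way, a 2-fold change, for 54 of the 57 members (94.7%, against 93.0% of 5408 genes with 1 probe set each). The exceptions were DNAJB6, FKBP5 and FKBP11. Within 0.5 either way lay 43 members (75.4%, against 62.7% of genes).

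**Figure D1:**
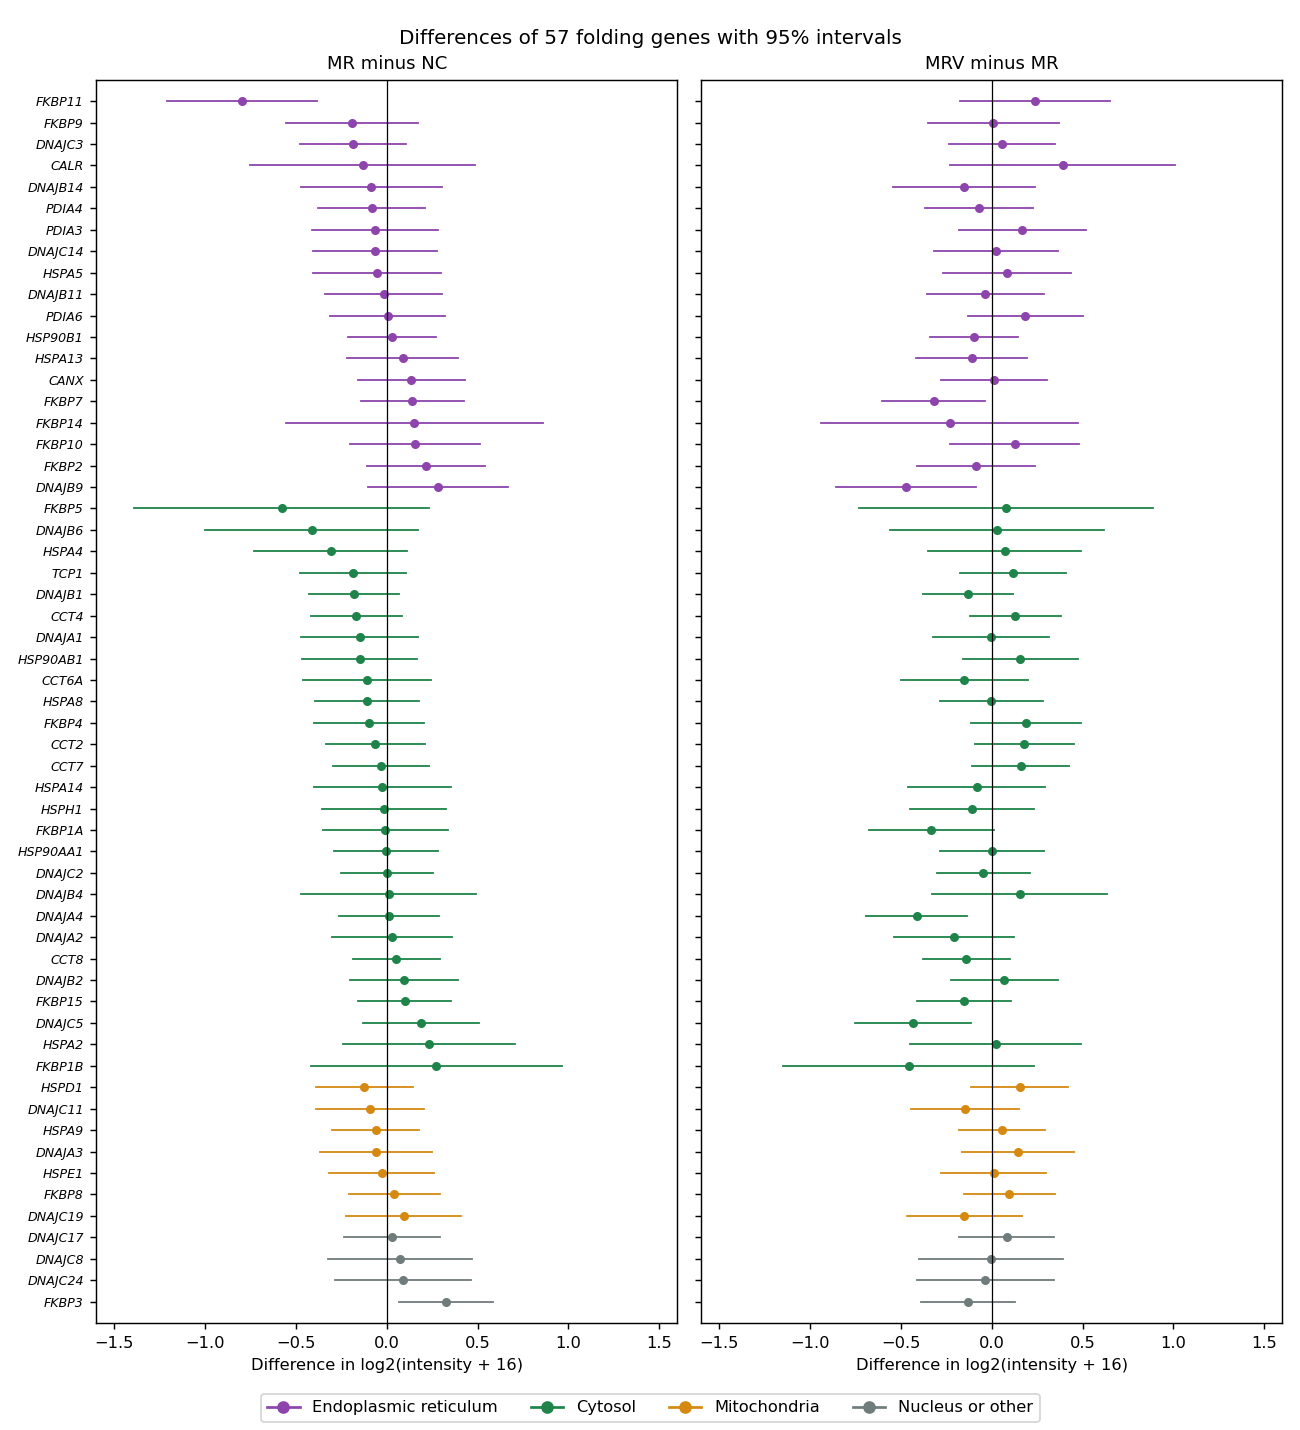
Differences in log2(intensity + 16) of the 57 tested genes for MR minus NC (left) and MRV minus MR (right), with 95% intervals from the limma fit, coloured by compartment and ordered within each compartment by MR minus NC. FKBP11 stands lowest on the left at -0.80, and on the right DNAJB9 stands lowest at -0.47. Both panels use the MR arrays.

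The comparison of MRV with MR asked how valsartan treatment altered folding genes in animals with the lesion. The J-domain genes DNAJA4, DNAJC5 and DNAJB9 and the ER isomerase gene FKBP7 had lower intensities in both treated animals, by log2 differences of -0.41, -0.44, -0.47 and -0.32. The chosen probe sets of the HSP70 and HSP90 genes differed by -0.11 to 0.16. Dimmer probe sets of HSP90AA1 and HSPA4 differed by 0.50 and -0.31, without overlap. The median over the 57 members was 0.0011, against -0.0056 over all probe sets and -0.031 over 1 probe set per gene. No member passed the adjusted threshold with limma (smallest adjusted p = 0.569), and 0% of all probe sets did. At an unadjusted p under 0.05, 4 members were lower (7.02%, against 5.04% of all probe sets and 6.27% of genes) and 0 were higher (against 2.24% and 1.61%). Arrays did not overlap for 17 members that were lower (29.8%, against 23.6% of all probe sets and 28.7% of genes) and 12 that were higher (21.1%, against 18.8% and 15%). The number of members at an unadjusted limma p under 0.05 was 1 without MR1, 2 without MR2, 1 without MRV1 and 0 with the actin ratio in the model.

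The comparison of MRV with NC set treated animals against animals with no lesion. DNAJA4, FKBP11 and DNAJB1 had the smallest p-values, and all of them were lower in MRV. Of the 57 members 36 lay below their control level, with a median of -0.053, and of all 5408 genes 3015 did, with a median of -0.023. No member passed the adjusted threshold with limma (smallest adjusted p = 0.904), and 0% of all probe sets did. At an unadjusted p under 0.05, 3 members were lower (5.26%, against 3.67% of all probe sets and 4.44% of genes) and 0 were higher (against 1.62% and 1.18%). Arrays did not overlap for 20 members that were lower (35.1%, against 18.1% of all probe sets and 21.8% of genes) and 10 that were higher (17.5%, against 15% and 13.3%). That count of lower members was 14 when the probe sets of a gene were averaged. The number of members at an unadjusted limma p under 0.05 was 1 without MRV1, 5 without NC2 and 1 with the actin ratio in the model. MR minus NC and MRV minus NC share the NC arrays, and MRV minus MR shares arrays with both, so the comparisons are not independent.

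FKBP11 had the largest difference of any member in MR minus NC. It read 722 and 939 (NC), 423 and 516 (MR) and 563 and 543 (MRV), so both lesioned groups lay below both controls without overlap. The log2 difference was -0.80 for MR minus NC (SE 0.17, limma adjusted p = 0.999955) and -0.56 for MRV minus NC (SE 0.17, limma adjusted p = 0.904). Leaving out 1 array at a time moved the first value between -0.98 and -0.61 and the second between -0.75 and -0.37. FKBP11 is abundant in secretory cells such as plasma cells. Of the 12 plasma and B cell markers listed, 5 were measured, and their summed intensity was 369 and 339 (NC), 342 and 339 (MR) and 420.1 and 343 (MRV). TNFRSF17, CD38 and CD79B of that list lay below the filter, and no marker was at 0. Adipocyte markers, of which 8 of 11 were measured, summed to 5130.4 and 3945 (NC), 4170 and 3612 (MR) and 2796.5 and 2669 (MRV), and their part in the FKBP11 values was not tested. In whole tissue, fewer cells of a type and less RNA per cell cannot be told apart.

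**Figure D2:**
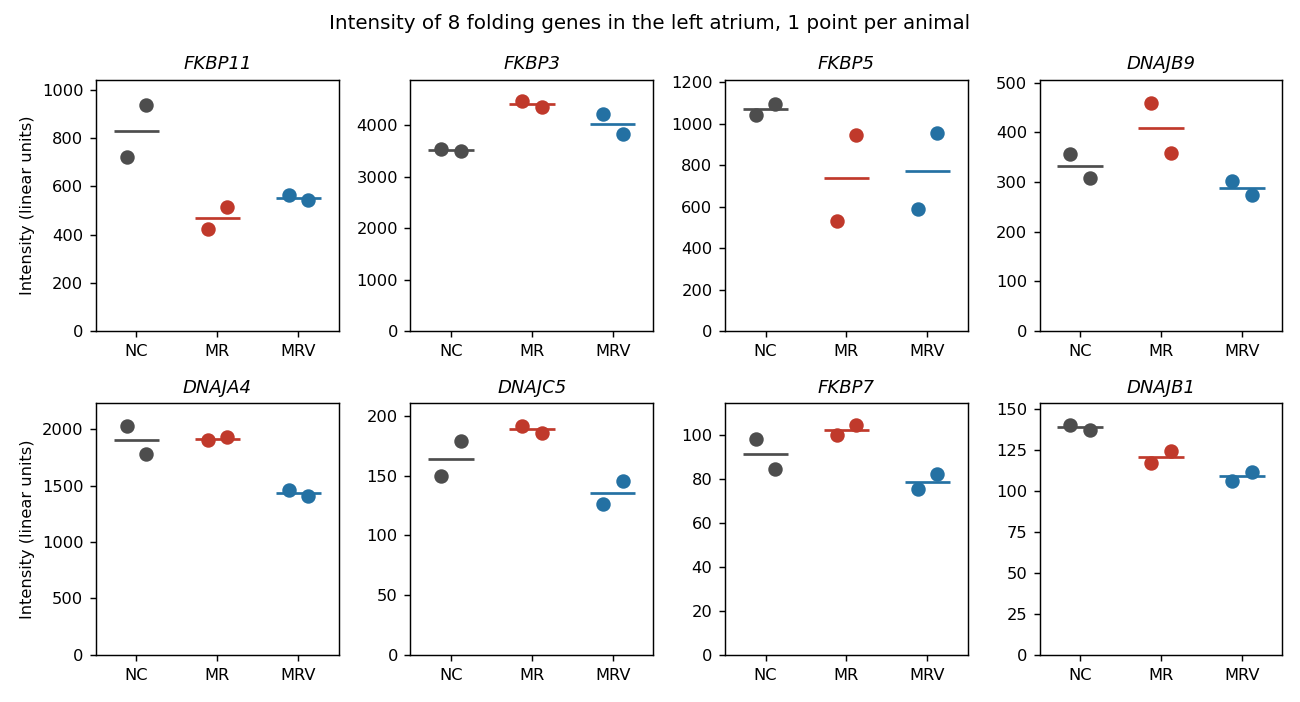
Intensity (linear units, axes from 0) of 8 folding genes, 1 point per animal, with a bar at each group mean. FKBP11 and DNAJB1 are lower in MR and MRV than in NC, and DNAJA4, DNAJC5, DNAJB9 and FKBP7 are lowest in MRV. FKBP3 is higher in MR and MRV than in NC, and the animals of MR (531 and 948) and of MRV (589 and 957) lie far apart for FKBP5.

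The chosen probe sets of the central ER chaperones HSPA5 and HSP90B1 differed between group means by log2 differences of -0.098 to 0.083. HSPA5 (BiP), the ER HSP70 and the usual marker of ER stress, read 3285.5 and 3858 (NC), 3405 and 3457.5 (MR) and 4003 and 3302 (MRV). The groups overlapped, and the 95% interval of its log2 difference ran from -0.41 to 0.30 for MR minus NC and from -0.27 to 0.44 for MRV minus MR. HSP90B1 (GRP94), the ER HSP90, read 2504 and 2543 (NC), 2514 and 2635 (MR) and 2404 and 2403 (MRV). Its MRV arrays were lower than all others by a log2 difference of -0.098 from MR, but averaged with its other probe set the difference was 0.032. That other probe set read 494 and 1165 (NC), 850 and 1060 (MR) and 1002 and 1128 (MRV). It differed by 0.31 in MR minus NC and 0.48 in MRV minus NC (SE 0.38 for each). The direction for HSP90B1 therefore rests on the choice of probe set.

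The lectin chaperones calnexin (CANX) and calreticulin (CALR) hold newly made glycoproteins until they fold. CANX read 2915 and 3433 (NC), 3493.5 and 3456 (MR) and 3452 and 3549 (MRV). It was above both NC arrays in all 4 lesioned animals, with log2 differences of 0.13 for MR and 0.15 for MRV (SE 0.12 for each). Without NC1 these were 0.018 and 0.028, and without NC2 0.25 and 0.26. Of the 4 other tested CANX probe sets, 3 differed the other way in MR minus NC, by -0.12, -0.080 and -0.022. Those 3 were dim, with means from 77 to 122.5 against 3383 for the chosen probe set. The remaining one, with a mean of 1590, differed by 0.15, without overlap. CALR read 663 and 617 (NC), 647 and 523 (MR) and 991 and 593 (MRV). The single high array MRV1 set its MRV minus MR difference of 0.39 (SE 0.25), which was 0.027 without it.

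The disulfide isomerases, which form and reshuffle disulfide bonds in the ER, showed no shared direction. PDIA3, the isomerase that works with the lectin chaperones, read 696 and 826 (NC), 684.5 and 764 (MR) and 759 and 875 (MRV). PDIA4 read 781 and 742 (NC), 661 and 778 (MR) and 671 and 694.5 (MRV), so treated animals lay below controls. PDIA6 read 1191.5 and 1109 (NC), 1065 and 1249 (MR) and 1384 and 1245 (MRV), so treated animals lay above controls. The log2 differences of MRV minus NC were 0.10, -0.15 and 0.19 for PDIA3, PDIA4 and PDIA6 (SE 0.14, 0.12 and 0.13). The other tested probe set of PDIA3 differed by 0.21, without overlap, and that of PDIA4 by -0.032.

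Among the ER J-domain genes, DNAJB9 (ERdj4), which helps clear misfolded proteins and restrains the stress sensor IRE1, stood apart. It read 356 and 307 (NC), 459 and 358 (MR) and 302 and 274 (MRV), with MR above and MRV below the NC arrays. The log2 difference of MRV minus MR was -0.47 (SE 0.16, limma adjusted p = 0.626), from -0.65 without MR2 to -0.30 without MR1, and -0.30 with the actin ratio in the model. Its other probe sets differed by -0.52 and -0.31. DNAJB11 (ERdj3) and DNAJC3 (p58IPK), which also serve BiP, differed by -0.035 and 0.055 in MRV minus MR and by -0.018 and -0.19 in MR minus NC. The ER membrane protein genes DNAJB14 and DNAJC14 differed by -0.15 and 0.023 in MRV minus MR, and the other DNAJB14 probe set by 0.14. HSPA13, an HSP70 relative of the ER, read between 315 and 384 on all arrays.

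The ER isomerases FKBP7, FKBP9, FKBP10 and FKBP14, several of which act on procollagen, did not share a direction. FKBP7 read 98.5 and 84.9 (NC), 100.3 and 105 (MR) and 75.4 and 82.5 (MRV), and the treated arrays lay below all others. Its log2 difference of MRV minus MR was -0.32 (SE 0.12, limma adjusted p = 0.655) and -0.20 with the actin ratio in the model. FKBP10 (FKBP65), a chaperone of type I procollagen, read 186 and 141 (NC), 182 and 182 (MR) and 196 and 204 (MRV), a log2 difference of 0.28 for MRV minus NC (SE 0.14). FKBP14 read 137 in NC1 and 65.6 in NC2, with the other 4 arrays between them, from 87.5 to 115. FKBP2 read 469 and 496 (NC), 505.5 and 626 (MR) and 524.5 and 532 (MRV), and FKBP9 read from 369 to 509.

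In the cytosol, the chosen probe sets of HSPA8 and the HSP90 genes differed little between groups. HSPA8 (HSC70), which folds new proteins and uncoats vesicles, read 5342 and 6045 (NC), 5063 and 5483 (MR) and 5155 and 5359 (MRV). Its difference of MR minus NC was -0.11, but 0.17 and 0.086 for its other tested, much dimmer probe sets. HSP90AA1, the inducible HSP90, read from 7040.3 to 8088 on all arrays, and its 95% interval for MR minus NC ran from -0.29 to 0.28. The other HSP90AA1 probe sets differed in that comparison by 0.079, 0.23, -0.043 and -0.18. HSP90AB1, the constitutive HSP90, read 3385 and 3983 (NC), 3359 and 3254 (MR) and 3476 and 3905 (MRV), with the MR arrays below all others by -0.15 from NC (SE 0.13). HSPA4 and HSPH1, exchange factors that recharge HSP70, differed by -0.31 and -0.017 in MR minus NC (SE 0.17 and 0.14). For HSPA4 the MR1 array at 285 stood below the other 5, which read from 334 to 450.4, and another probe set of the gene differed by 0.090. HSPA2, an HSP70 best known from the testis, read 132.5 and 174 (NC), 201 and 163 (MR) and 209 and 162 (MRV). HSPA14 and DNAJC2, which assist folding at the ribosome, differed by -0.025 and 0.00023 in MR minus NC.

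**Figure D3:**
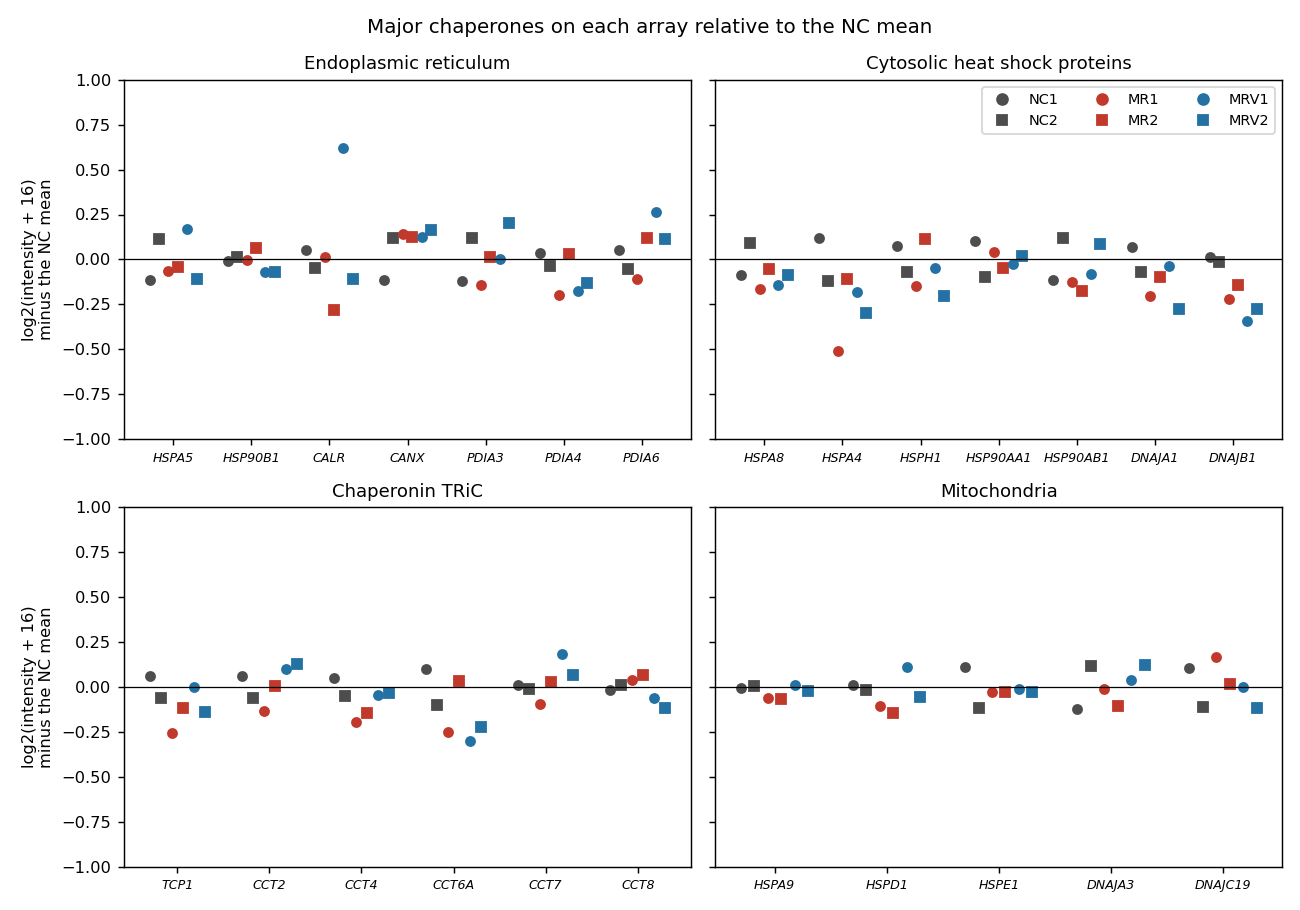
Major chaperones on each array as log2(intensity + 16) minus the mean of the NC arrays, by compartment, with circles for replicate 1 and squares for replicate 2 of each group. Most points lie within 0.25 of the NC mean. CALR on MRV1 and HSPA4 on MR1 stand farthest from it.

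DNAJA4, a cytosolic J-domain protein that partners HSP70, was the member with the smallest p in both comparisons with MRV. It read 2032 and 1776.5 (NC), 1906 and 1927 (MR) and 1459 and 1410.0 (MRV), so both treated animals lay below all 4 others. The log2 difference was -0.41 for MRV minus MR (SE 0.11, limma adjusted p = 0.569) and -0.40 for MRV minus NC (SE 0.11, limma adjusted p = 0.904). Without each array in turn the first value ran from -0.44 to -0.39, and with the actin ratio in the model it was -0.36. The other cytosolic DNAJA genes were nearer to their levels in MR, with DNAJA1 at -0.0058 and DNAJA2 at -0.21.

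DNAJC5 (cysteine string protein), which guards the membrane fusion machinery of secretory vesicles, read 149.7 and 179 (NC), 191.5 and 186 (MR) and 126 and 145 (MRV). The groups did not overlap, and the log2 difference of MRV minus MR was -0.44 (SE 0.13, limma adjusted p = 0.596; -0.42 with the actin ratio in the model). Markers of Schwann cells and neurons, of which 4 of 8 were measured, were also lower in MRV. They summed to 2006 and 2967 (NC), 3015 and 2767 (MR) and 1108 and 1811 (MRV), and their part in the values of DNAJC5 and DNAJA4 was not tested. Smooth muscle markers (6 of 7 measured) summed to 15111 and 14607 in MR and 12528 and 13920 in MRV. Ventricular markers (4 of 5 measured) summed to 42413 and 34386 in MR and 29944 and 29846 in MRV.

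DNAJB1 (HSP40), a heat-inducible partner of HSP70, read 140.3 and 137 (NC), 117 and 124 (MR) and 106 and 112 (MRV), in 3 steps without overlap. The log2 difference of MRV minus NC was -0.31 (SE 0.10, limma adjusted p = 0.904), ranging from -0.34 to -0.28 when 1 array at a time was left out. DNAJB6, whose mutation causes a limb-girdle muscular dystrophy, read 581 and 704 (NC), 378 and 599 (MR) and 443 and 534 (MRV). Its log2 difference of MR minus NC was -0.41 (SE 0.24), but its other probe sets differed by 0.30, 0.16 and -0.12. DNAJB2 read from 185 to 234.5 and DNAJB4 from 2789 to 4043, the latter on MRV1.

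Among the cytosolic FKBP genes, FKBP5 and FKBP1B differed most between animals of a group. FKBP5, a co-chaperone of HSP90 that is induced by glucocorticoids, read 1045 and 1095 (NC), 531 and 948 (MR) and 589 and 957 (MRV). The replicates within both lesioned groups were far apart, and the log2 difference of MR minus NC, -0.58 (SE 0.33), was -0.17 without MR1 and -0.99 without MR2. FKBP4, the other HSP90 co-chaperone of steroid receptors, read from 278.5 to 357.5. FKBP15 read 163.9 and 164.7 (NC), 169.5 and 184.5 (MR) and 152.4 and 162.4 (MRV). Its log2 difference of MRV minus MR was -0.15 (SE 0.10), and its other tested probe sets differed by -0.056 and -0.049. FKBP1A (FKBP12) and FKBP1B (FKBP12.6) bind ryanodine receptors, the calcium release channels of muscle, and FKBP1B is the partner of the cardiac channel. FKBP1A read 1115 and 970.3 (NC), 1080.5 and 989 (MR) and 748 and 893 (MRV), below all others in treated animals by -0.33 from MR (SE 0.14), and by -0.037 with the actin ratio in the model. FKBP1B read 335 and 179 (NC), 318 and 282 (MR) and 232 and 197 (MRV). Its MRV minus MR difference was -0.46 (SE 0.28) and -0.11 with the actin ratio in the model, and its MR minus NC difference of 0.27 turned to -0.15 without NC2. The other, dimmer FKBP1B probe set read 75.1 and 74.6 (NC), 82 and 80.5 (MR) and 65 and 68.1 (MRV). It differed by -0.24 in MRV minus MR and by 0.098 in MR minus NC (SE 0.097 for each).

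The chaperonin TRiC, a double ring that folds actin and tubulin, was measured through 6 of its subunit genes. In MR minus NC, 5 of the 6 were lower, with a median log2 difference of -0.087, while 2565 of all 5408 genes were lower, with a median of 0.0076. The low values came mainly from MR1, where the median deviation of the subunits from their own means was -0.13, against -0.0085 on MR2. In MRV minus MR, 4 were higher and 2 lower, with a median of 0.12, against -0.031 over all genes. TCP1 read 2078 and 1904 (NC), 1661 and 1837.5 (MR) and 1988 and 1809 (MRV). CCT4 read 2112 and 1964 (NC), 1779 and 1843 (MR) and 1972 and 1987.5 (MRV), with MR below all others. CCT2 and CCT7 were highest in MRV, by 0.18 and 0.16 over MR (SE 0.11 for each), while CCT8 was lowest in MRV, by -0.14 from MR (SE 0.10). For CCT6A the MRV and MR arrays overlapped, and its difference of -0.15 (SE 0.14) was -0.0089 without MR2 and 0.040 for its other probe set. The subunits form 1 complex, and their probe sets did not track each other closely. Over the 6 arrays the 15 pairs had a median Pearson r of 0.44, from -0.78 for CCT2 with CCT8 to 0.87 for CCT4 with TCP1, as a description of values that share the same arrays.

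In mitochondria, the matrix chaperones differed by little between groups. HSPA9 (mortalin), the HSP70 of the import motor, read 4471 and 4506.5 (NC), 4307 and 4287.5 (MR) and 4527 and 4416.5 (MRV). HSPD1 (HSP60), the chaperonin of the matrix, read 3493 and 3426 (NC), 3217 and 3126 (MR) and 3735 and 3328.5 (MRV). Both genes had MR arrays below all others, by log2 differences from NC of -0.063 (SE 0.096) and -0.13 (SE 0.11). The other tested HSPA9 probe sets differed by -0.026 and 0.030. HSPE1 (HSP10), the lid of HSP60, neighbours HSPD1 in the RefSeq annotation of assembly Sscrofa11.1, and read 4336 and 3702 (NC), 3928 and 3931 (MR) and 3984 and 3925 (MRV). It did not show the order of HSPD1, with differences of -0.028 in MR minus NC and 0.0090 in MRV minus MR.

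DNAJA3 (TID1), the J-domain partner of mortalin, read from 500.3 to 596, and DNAJC19, which belongs to the import motor and is mutated in a childhood cardiomyopathy, read from 621 to 762. DNAJC11 of the outer membrane and cristae complex read 291.5 and 274 (NC), 270.4 and 257.5 (MR) and 257 and 217 (MRV), a log2 difference of -0.24 for MRV minus NC (SE 0.12). That value was -0.36 without MRV1, -0.13 without MRV2 and 0.028 for its other tested probe set. FKBP8 of the outer membrane read from 229 to 268. Over the 7 mitochondrial members the median was -0.060 in MR minus NC and 0.057 in MRV minus MR. In MR minus NC, arrays did not overlap for 3 that were lower (42.9%, against 12.4% of genes) and 1 that was higher (14.3%, against 15.7%). In MRV minus MR, which shares the MR arrays, it was 2 lower (28.6%, against 28.7%) and 4 higher (57.1%, against 15%).

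**Figure D4:**
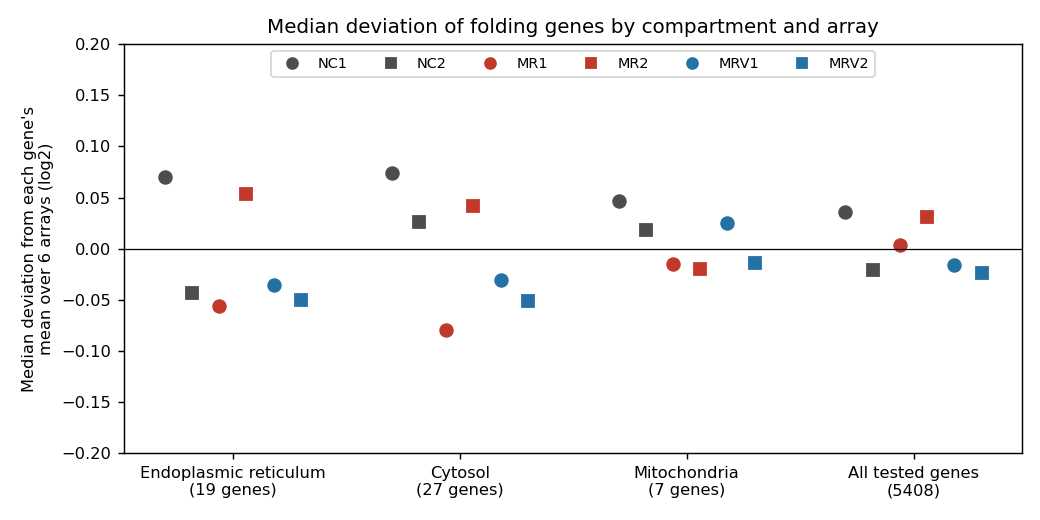
Median deviation (log2) of the tested genes of each compartment from their own mean over the 6 arrays, 1 point per array, beside the same for 5408 genes. The medians lie between -0.079 (cytosol, MR1) and 0.074 (cytosol, NC1).

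For cytosolic genes the medians of the MR animals lay far apart, while both NC medians lay above both MRV medians. For ER genes the medians of the NC animals and of the MR animals lay far apart. For the 27 cytosolic genes the median deviation from each gene's mean was 0.074 and 0.026 (NC), -0.079 and 0.042 (MR) and -0.030 and -0.051 (MRV). For the 19 ER genes it was 0.070 and -0.043 (NC), -0.056 and 0.053 (MR) and -0.036 and -0.050 (MRV). For all 5408 genes it was 0.036 and -0.021 (NC), 0.0033 and 0.031 (MR) and -0.016 and -0.024 (MRV). In MRV minus NC, 20 of the 27 cytosolic genes were lower (median -0.11), and 3015 of all 5408 genes (median -0.023). Arrays did not overlap for 10 lower cytosolic genes (37%) and 9 lower ER genes (47.4%), against 21.8% of all genes. They did not overlap for 3 higher cytosolic genes (11.1%) and 4 higher ER genes (21.1%), against 13.3%. Of the 7 mitochondrial genes, 1 was lower without overlap (14.3%) and 1 was higher (14.3%).

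Members outside these compartments were FKBP3, DNAJC8, DNAJC9 and DNAJC17 of the nucleus and DNAJC24, which acts in diphthamide synthesis. FKBP3 (FKBP25) read 3543 and 3492 (NC), 4472 and 4344 (MR) and 4212 and 3836 (MRV), so all 4 lesioned animals lay above both controls. The log2 difference of MR minus NC was 0.32 (SE 0.10, limma adjusted p = 0.999955) and ran from 0.30 to 0.35 when 1 array at a time was left out. DNAJC8, DNAJC17 and DNAJC24 differed by 0.074, 0.028 and 0.090 in MR minus NC. The 5 members below the filter were DNAJC6, DNAJC9, FKBP6, HSPA6 and HSPA12A. FKBP6 read from 8.6 to 11.4 and the strictly heat-inducible HSPA6 from 29.6 to 36.7, near the bottom of the intensity scale. The HSP70 genes HSPA1A and HSPA1B were not among the members, so they were not examined.

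Genes that regulate or accompany the chaperones were taken from separate lists. Over all 5408 genes, 2565 were lower in MR minus NC, 3116 in MRV minus MR and 3015 in MRV minus NC. Among 16 tested genes of the unfolded protein response and ER-associated degradation, 1 passed the adjusted threshold in MR minus NC, the asparagine synthetase gene ASNS, at 779 and 852 in NC against 193 and 173 in MR (log2 difference -2.06, limma adjusted p = 0.0466). The list median was -0.058 in MR minus NC and -0.064 in MRV minus MR. ATF4, the transcription factor of the amino acid and ER stress response, read 1912.5 and 2295 (NC), 2561 and 2305 (MR) and 1776 and 1578 (MRV). Its log2 difference of MRV minus MR was -0.53 (SE 0.14). XBP1, the factor activated by IRE1, read 1201 and 1388 (NC), 1138 and 1374 (MR) and 1468 and 1631 (MRV), highest in MRV. MANF and HYOU1, ER stress proteins, differed by -0.29 and -0.20 in MRV minus NC.

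Other factors of ER folding and translocation numbered 19, of which 15 were lower in MRV than in MR, with a median of -0.067, against -0.031 over all genes. At an unadjusted limma p under 0.05, 1 was lower (6.27% of all genes were), the translocon gene SSR4, at 1460.0 and 1508 in MR and 1072 and 1199 in MRV. Among 27 heat shock factors and cytosolic co-chaperones, 15 were higher and 12 lower in MRV minus MR, with a median of 0.066. The higher ones include SERPINH1 (0.33), an ER protein gene that is also counted among the 19 ER factors. ST13 (HIP), which stabilizes HSP70, read 762 and 790.4 in MR and 1118 and 928 in MRV. BAG3, which steers HSP70 clients to autophagy in muscle, read 2755 and 2694 in MR and 2123.5 and 2393 in MRV.

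Among 27 genes of mitochondrial import, folding and proteolysis that are not chaperone members, 22 were lower in MRV than in MR (median -0.081) and 22 lower than in NC (median -0.12). In MRV minus NC 4 of the 27 were lower at an unadjusted limma p under 0.05, against 4.44% of all genes. Among those 4 were the import channel genes TIMM50, at 518 and 500.2 in NC and 358 and 379 in MRV, and TIMM22, at 186 and 179 in NC and 139 and 143 in MRV. The medians of all probe sets were -0.0056 and -0.0039 in MRV minus MR and MRV minus NC, and those of 1 probe set per gene -0.031 and -0.023. In MR minus NC 16 of the 27 were lower (median -0.0056). There too 4 were lower at an unadjusted limma p under 0.05, against 1.89% of all genes, and TIMM50 was 1 of them. Another was LONP2, which encodes a peroxisomal protease, so the list and this count are not wholly mitochondrial. Of the 7 small heat shock protein genes, 5 were lower in MRV than in MR, with a median of -0.27, and 4 of them had an unadjusted limma p under 0.05, against 6.27% of all genes. In MR minus NC, which shares the MR arrays, 5 of the 7 were higher and 2 lower, with a median of 0.17. At an unadjusted limma p under 0.05, 1 of the 7 was higher and 2 were lower, against 2.61% and 1.89% of all genes. The list thus had no single direction in that comparison. No gene of these lists other than ASNS passed an adjusted p of 0.05.

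Of the members, 25 had more than 1 probe set. The other tested probe sets, 33 from 21 genes, had the same sign as the chosen one in 19 cases in MR minus NC, 20 in MRV minus MR and 16 in MRV minus NC. The 5 genes outside the list whose values over the 6 arrays were most like those of HSPA5, among 5351 ranked, were ACAN (Pearson r = 0.94), MFSD6 (r = 0.93), ATP9A (r = 0.93), PPP6R3 (r = 0.92) and SPAG7 (r = 0.92), given as a description of 6 points.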

How the data were processed

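The deposited table gives each probe set a linear intensity on every array. Array medians lay close together, from 90.2 to 93.4, and no further normalization was applied. MAS5 and RMA appear in the submitters' processing notes, without versions, and the sources used here do not say which of them made the table. Values ran from 4.8 to 27167. The table held 24123 probe sets, of which 124 controls were left out. Symbols came from the platform annotation, and 61 of the 62 members matched RefSeq (assembly Sscrofa11.1) by Entrez ID.

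Differences were fitted on log2(intensity + 16) by limma 3.58.1 (lmFit, eBayes; R 4.3.3), with group means as terms, over all 14400 probe sets at or above the 40th percentile. Degrees of freedom were 3 residual and 2.78 prior ones. Standard errors (SE) and 95% intervals are the moderated ones, the intervals not adjusted for the number of genes. P-values were adjusted by Benjamini-Hochberg over all tested probe sets. With 2 arrays against 2, the smallest two-sided exact permutation p is 0.333, so single genes were tested through this fit alone. The log2 scale with a pseudocount understates changes of dim genes. On simulated data for MR minus NC, with 200 of 14400 probe sets changed, it recovered 57.2% of log2 changes of 1 and 88.4% of changes of 2. The simulated noise was normal and independent between probe sets, with the variance of each taken from these arrays. Noise shared between genes and smaller changes were not simulated, so these rates may not hold for the real arrays.

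The members and lists were chosen with earlier results of these data known. Compartments were assigned from general knowledge. The alternatives changed the pseudocount, the filter, the normalization, the probe set rule and the samples fitted, added a replicate block or the actin ratio, or left out 1 array. Named members were those without overlap and at least 0.2 apart (log2), up to 20 per comparison by smallest p, plus the major chaperones of each compartment. Of each companion list, up to 4 genes by smallest p could be named. DNAJB2, DNAJB4, DNAJC2, DNAJC8, DNAJC14, DNAJC17, DNAJC24, FKBP8, FKBP9, FKBP15, HSPA13, HSPA14 and the members below the filter were added so that each group is complete.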

Additional observations from a re-analysis of the deposited data

How the results depend on the processing

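No member passed a limma adjusted p of 0.05 in any of the 15 alternatives, over which the smallest adjusted p of a member ran from 0.192 to 1. Of the 61 named differences that exceeded their SE, 58 kept their sign in all alternatives. The others were CALR in MRV minus NC (-0.11 without MRV1, 0.62 without MRV2), FKBP11 in MRV minus MR (-0.096 with the actin ratio in the model) and HSP90B1 in MRV minus MR (0.032 with its probe sets averaged). The members' median in MRV minus MR was -0.089 with the actin ratio in the model. Without 1 array at a time the medians ran from -0.059 to 0.026 (MR minus NC), from -0.077 to 0.054 (MRV minus MR) and from -0.094 to -0.014 (MRV minus NC). Counts without overlap rise when 1 array fewer has to be separated. They ran from 10 to 22 higher and 11 to 27 lower in MR minus NC, from 12 to 26 and 17 to 31 in MRV minus MR, and from 10 to 19 and 20 to 33 in MRV minus NC. The labels link same-numbered animals by the number alone, and whether they also shared a batch is not known. Their deviations from the group means correlated at 0.34 (NC and MR), 0.20 (NC and MRV) and 0.019 (MR and MRV). With the replicate number as a block, 0 members were called, and 4, 3 and 4 had an unadjusted limma p under 0.05, against 2, 4 and 3 without it. The 2 animals per group limit every value.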
